A study of Arabidopsis thaliana with 6 samples.

Results

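The introns described here are those of Arabidopsis thaliana that held fewer reads, relative to their gene, in every prmt5 mutant library than in any wild type library. An intron bin, the stretch of a gene that its annotation gives as intron, was tested where 3 or more libraries held 10 reads or more and the mean count of its gene reached 20. For each library the intron count plus 0.5 was divided by the gene count plus 1, and an intron was kept where the highest mutant ratio was below 0.8 times the lowest wild type ratio. This quotient kept 330 of 34408 tested intron bins, 0.959% of them, in 305 of 12275 genes. The introns were chosen by the mutant and wild type ratios themselves, so every comparison of those values is given as a description, with no test.

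The tested plants carried a mutation in PRMT5 (the prmt5 mutant, 3 libraries), and the plants compared with them were wild type (3 libraries). Both were in the Col-0 background, and the sample titles call both groups control. After sowing on Murashige and Skoog medium, all plants were kept in the dark for 4 days (stratification). They were grown for 15 days at 22 °C in continuous white light and collected whole. The labels name no mutant allele and do not say whether the libraries of a group came from separate cultures, so the p-value and the calls below measure only the spread between these libraries, which may be technical. PRMT5 itself had 1915, 2438 and 1840 reads in the mutant libraries and 1385, 1670 and 865 in the wild type libraries, a log2 difference of 0.81 ± 0.099 (SE; edgeR quasi-likelihood test with Benjamini-Hochberg adjustment, adjusted p = 0.00011). The labelled mutation therefore did not show as fewer PRMT5 reads. Whole-plant RNA was seen in all libraries: the shoot gene RBCS1A had 13568 to 14020 CPM (counts scaled to library size) in mutant and 17455 to 19069 CPM in wild type libraries, and the root gene PYK10 had 837 to 923 CPM in mutant and 886 to 1407 CPM in wild type libraries. The shoot gene CAB1 had 5138 to 6935 CPM in mutant and 14222 to 16197 CPM in wild type libraries. For the shoot gene LHCB2.1 the values were 744 to 1274 CPM in mutant and 1291 to 2395 CPM in wild type libraries. The root gene TIP2;3 (4.33 to 8.94 and 4.21 to 8.66 CPM) and the meristem gene STM (1.56 to 2.48 and 1.07 to 4.56 CPM) overlapped between the groups. In RNA of whole plants, fewer cells of a type and less RNA per cell cannot be told apart.

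PRMT5 is a protein arginine methyltransferase that places symmetric dimethyl groups on arginines, among them those of the Sm proteins at the core of the spliceosomal snRNPs. Plants that lack it are known for retained introns, changed splice site choice, late flowering and an altered circadian clock. An intron is recognised at its 5′ splice site by pairing with the U1 and then the U6 snRNA, and a few introns with another start sequence are removed by a minor, U12-dependent spliceosome. Reads inside an intron can come from unspliced or retained RNA, from a transcript that ends or starts within the intron, or from another gene that lies there.

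The 5′ splice sites of 10 introns are shown first, because the splice site score given next is computed from such sites. The introns are 10 of the 12 with the smallest quotients among those with a mean count of at least 50, no gene repeated. Each line gives 10 exonic and 14 intronic bases, read 5′ to 3′ on the strand of the gene from the RefSeq TAIR10.1 assembly, and the capitals mark the 9 bases scored below (3 of the exon and 6 of the intron).
AT3G25840, chr3:9452479-9452502, minus strand, 3′ UTR: acaggagAAGGTACAAtggttgtt
LOG8, chr5:3855741-3855764, plus strand: gccaattGAGGTATGTatcttctt
GLR3.4, chr1:1507797-1507820, plus strand: ccatcttCTGGTTAGTttcccagt
ECR1, chr5:6455216-6455239, plus strand: tttatcaAAGGTCCTTcctctcgc
AT5G63370, chr5:25384346-25384369, minus strand, 3′ UTR: gacatagGAGGTATGGcagtggtt
SWN, chr4:891146-891169, plus strand: ctacgctAAGGTACTAaatgcttc
AT3G11230, chr3:3518014-3518037, plus strand: ttctcgaAAGGTTAATacccgatt
ABIL4, chr5:16812082-16812105, minus strand: atactgcAAGGTATAAtcttgatt
AT1G53780, chr1:20078066-20078089, minus strand, 5′ UTR: tgtttctGAGGTTAGTtcctatat
SPT1, chr3:18091510-18091533, plus strand: tcaaacaGAGGTATCTtgatagct
The site of each line holds GT at the start of the intron and G as the last exonic base.

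Over the whole group the 5′ splice sites scored higher, at the median, than those of all tested introns. The score was the sum over the 9 bases of the log2 of each base's frequency in 119731 introns over 0.25. Its median was 7.87 in the 308 whole introns of the group that start with GT and 6.78 in 33040 such introns among all tested. It was 5.67 in the introns with more reads in the mutant by the mirror rule (highest wild type ratio below 0.8 times the lowest mutant ratio), which held 8659 introns, 25.2% of those tested. All tested introns include these, so 6.78 is not the median of introns that met neither rule. The last exonic base was G in 80.8% of the group and 77.4% of all tested introns, and intron base 5 was G in 52.3% and 46.4%. With genes divided into 3 equal parts, the median score was 7.54 in the group against 6.33 among all tested introns in the 5′ part, 7.85 against 6.77 in the middle part and 7.97 against 7.10 in the 3′ part. Median length (102.5 bases in the group, 108 among all tested) and median GC content (33.5% and 33.3%) were close to each other.

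Introns that open with GTATCC or ATATCC, the start known for introns of the minor spliceosome, made up 6 of the 317 whole introns of the group (1.89%) and 195 of 33510 tested whole introns (0.582%). The motif was searched on the strand of the gene only, at the first 6 intronic bases. Of these 195 introns, 6 (3.08%) had fewer and 12 (6.15%) had more reads in the mutant by the rule and its mirror. The sites of the 6 are shown because they differ from the common pattern above; the last 6 capitals are the motif.
AT2G26810, chr2:11434419-11434442, minus strand: gctgataTCTATATCCttatgttc
AT5G63700, chr5:25494175-25494198, minus strand: ggagaagAGAATATCCtttaagat
AT4G36850, chr4:17353613-17353636, minus strand: agatctaTTTGTATCCttttctaa
AT1G73350, chr1:27576225-27576248, minus strand: tgcctttAAAATATCCtttcttaa
AT3G46210, chr3:16977847-16977870, minus strand: tgatggtTCTGTATCCtttttatg
AT5G58100, chr5:23514215-23514238, plus strand: gagagaaCGAGTATCCttgggaga
In AT2G26810 this intron had 4.14, 4.47 and 3.50 reads per 100 gene reads in the mutant libraries and 9.27, 8.73 and 8.04 in the wild type libraries. In AT1G73350 it had 3.57, 3.08 and 3.97 in the mutant and 5.89, 7.63 and 5.61 in the wild type. No mutant library reached a wild type library in either gene, as the rule requires, and 4 of the 6 introns lay in the 3′ part of their gene.

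The rule used the ratios of mutant and wild type, and the wild type libraries alone could meet the read filter. Nothing is therefore read from the levels given here. At the median the group was at a higher level in the wild type than all tested introns, and at a lower level in the mutant. Its median was 0.905 reads per 100 gene reads in the mutant and 2.32 in the wild type, while the median of all tested introns was 1.52 in the mutant and 0.933 in the wild type. Per base, the group's introns held 13.2% of the exonic read density of their gene in the mutant and 31.6% in the wild type (medians), against 18.01% and 11.3% over all tested introns. The median log2 difference of the ratio to the gene was -1.09 in the group and 0.46 over all tested introns. The quotient in the group ran between 0.118 and 0.800, with a median of 0.692. A mean count under 20 was found in 136 of the introns (41.2%, against 47.9% of all tested introns) and a mean count of at least 50 in 71 (21.5%, against 20.97%).

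**Figure D1:**
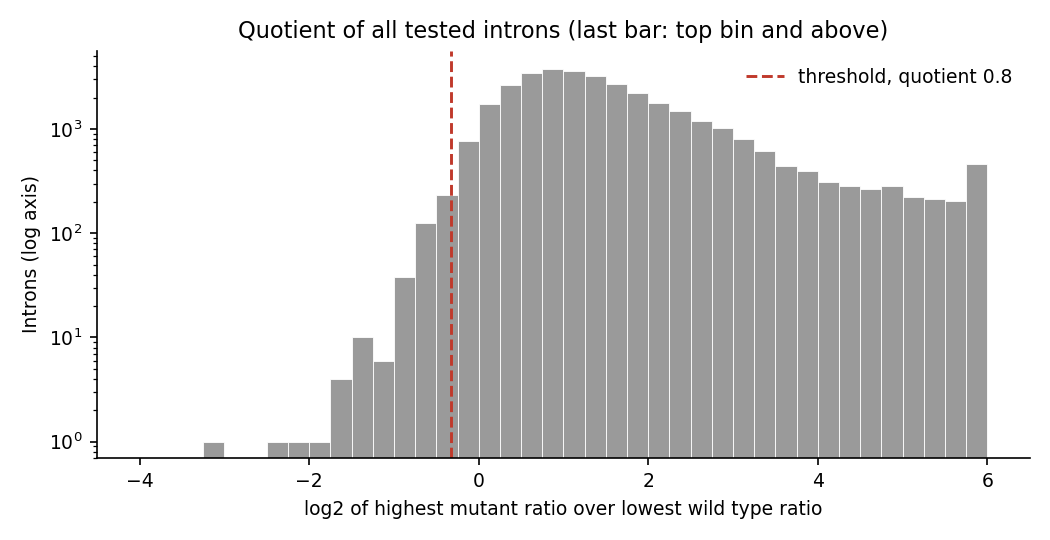
The horizontal axis gives the log2 of the highest mutant ratio over the lowest wild type ratio and the vertical axis the number of tested introns on a log scale. The 330 introns left of the dashed line at a quotient of 0.8 form the lower tail of the 34408, and the last bar also holds all larger quotients.

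A lower ratio can come with fewer intron reads or with more gene reads, and both occurred. With counts scaled by TMM library sizes, the intron reads themselves were lower in all mutant libraries than in all wild type libraries in 185 introns, 56.1% of the group, where 4.41% of all tested introns were. They overlapped between the groups in 114 and were higher in the mutant in 31 (9.39%, against 41.7% of all tested introns). The host gene was higher in all mutant libraries in 179 introns (54.2%, against 38.8% of all tested introns), overlapped in 123 and was lower in 28 (8.48%, against 18% of all tested). Crossing both, 109 introns (33.03%, against 1.55% of all tested introns) had lower intron reads in a gene that overlapped, and 100 (30.3%, against 13.6%) had overlapping intron reads in a gene with more reads. Another 48 (14.5%, against 0.174%) had lower intron reads in a gene with more reads, and 31 (9.39%, against 25.04%) had more intron reads in a gene with more reads. On both measures 14 introns overlapped (4.24%, against 27.9%). The other 28 lay in genes with fewer reads, where the rule leaves no outcome but fewer intron reads. The rule used these intron and gene counts, so nothing is read from the shares.

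**Figure D2:**
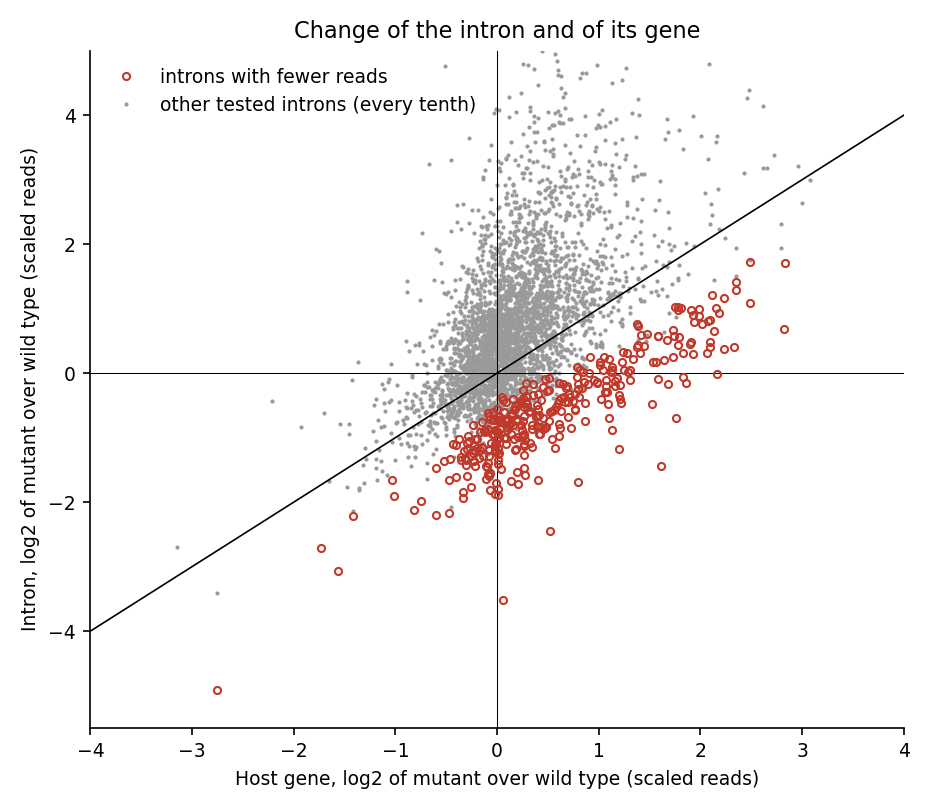
Each point is an intron, with the log2 difference of its host gene between mutant and wild type on the horizontal axis and that of its own scaled reads on the vertical axis; red circles are the 330 introns and grey dots 1 in 10 of the other tested introns. The red circles lie below the diagonal of equal change by construction, and they spread over genes that differed between -2.75 and 2.83 on the log2 scale.

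The edgeR intron test, which sets the intron count against the gene count, called 416 tested introns lower in the mutant (1.21%) and 9190 higher (26.7%); 226 of the 330 were among those called lower and 0 among those called higher. Of the 330 host gene entries, the gene test called 166 higher and 18 lower, where 31% and 11.8% of all tested introns lay in genes so called. The rule used the same libraries, so these counts add nothing to it.

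Other denominators, drawn from reads of the same gene, gave a lower ratio in a part of the group. Relative to reads spliced across the same intron, 183 of the 281 introns with enough spliced reads also stayed below 0.8, where 1.19% of all tested introns did. Relative to the 2 exon bins that adjoin the intron, 196 of 322 stayed below 0.8, where 0.88% of all tested introns did. Both held in 163 of 281 introns, where 241 of 30190 tested introns (0.798%) met both. In 93 of the 163 the scaled intron reads were lower as well, as they were in 121 of the 30190 (0.401%). The median log2 difference was -1.11 relative to spliced reads and -0.97 relative to the adjoining bins, against 0.48 and 0.40 over all tested introns. All of these measures share the intron counts that chose the group. Their denominators also come from reads of the gene whose count the rule used, so they are not independent of it. Nothing is therefore read from these shares.

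The 12 introns with the smallest quotients among those with a mean count of at least 50, no gene repeated, are shown by library below. The exceptions are AT3G25840 and AT5G63370, which are taken up with the 3′ UTR. In LOG8, ECR1, ABIL4, SWN and GLR3.4 the gene had more reads in every mutant library while the scaled intron reads overlapped. LOG8 belongs to the LONELY GUY family, whose enzymes release active cytokinins. Its intron at chr5:3855751-3855981 had 39, 86 and 72 reads in the mutant libraries and 52, 71 and 34 in the wild type libraries, and the gene had 2540, 5762 and 4838 reads in the mutant and 1325, 1666 and 874 in the wild type. Per 100 gene reads the intron stood at 1.51 ± 0.026 in the mutant and 4.03 ± 0.205 in the wild type (SD, n = 3). Reads spliced across it numbered 445, 1241 and 890 in the mutant and 181, 285 and 122 in the wild type. The intron reads of the 2 groups overlapped, while spliced and gene reads were higher in every mutant library.

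ECR1 is a subunit of the enzyme that activates the ubiquitin-like protein RUB. Its intron at chr5:6455226-6455459 had 60, 59 and 69 reads in the mutant and 74, 99 and 52 in the wild type, or 1.78 ± 0.241 and 4.28 ± 0.231 reads per 100 gene reads (SD, n = 3). Its gene averaged 97.1 ± 3.99 CPM in the mutant and 42.9 ± 3.26 in the wild type. ABIL4, of the ABL interactor family of actin regulators, had an intron with 120, 102 and 99 reads in the mutant and 107, 159 and 77 in the wild type, in a gene of 177 ± 19.8 CPM in the mutant and 80.8 ± 4.56 in the wild type. In both genes the raw intron reads of the groups overlapped and the gene level did not.

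SWN encodes SWINGER, a histone H3 lysine 27 methyltransferase of the Polycomb repressive complex. The gene averaged 105 ± 2.16 CPM in the mutant and 45.5 ± 0.521 in the wild type. Its intron at chr4:891156-891551 had 1.12, 1.11 and 1.39 reads per 100 gene reads in the mutant libraries and 2.97, 2.66 and 4.90 in the wild type libraries. Wild type replicate 3 stood above the other wild type libraries, and the groups did not overlap without it. GLR3.4, a glutamate receptor-like channel, had 216, 299 and 249 reads spliced across its intron at chr1:1507807-1507885 in the mutant and 49, 145 and 69 in the wild type. The intron itself had 45, 37 and 38 reads in the mutant and 47, 96 and 48 in the wild type, which overlapped after scaling. The gene averaged 164 ± 12.5 CPM in the mutant and 70.7 ± 8.47 in the wild type. Relative to the exonic density of this gene, the read density of the intron was 29.7% in the mutant and 94.5% in the wild type.

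In SPT1, AT1G53780 and AT3G11230 the intron reads were lower after scaling in all mutant libraries. SPT1 encodes a subunit of serine palmitoyltransferase, which opens sphingolipid synthesis. Its intron at chr3:18091520-18091609 had 24, 37 and 31 reads in the mutant and 75, 103 and 68 in the wild type. The gene averaged 34.6 ± 1.46 CPM in the mutant and 36.6 ± 1.27 in the wild type, and 128, 142 and 144 reads were spliced across the intron in the mutant against 110, 227 and 118 in the wild type. The mutant libraries thus held fewer intron reads while gene and spliced reads overlapped.

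AT1G53780, annotated as an ATPase of the 26S proteasome regulatory complex, had its intron in the 5′ UTR at chr1:20077746-20078079. It had 79, 109 and 73 reads in the mutant and 161, 212 and 96 in the wild type, and 97, 126 and 74 reads were spliced across it in the mutant against 39, 98 and 35 in the wild type. AT3G11230, a Yippee family putative zinc-binding protein gene, had 34, 61 and 54 intron reads in the mutant and 68, 103 and 53 in the wild type at chr3:3518024-3518108. The ratio to the gene was 3.46 ± 0.475 per 100 in the mutant and 7.98 ± 0.991 in the wild type (SD, n = 3).

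For 2 of the 12, reads spliced across the bin were 0 in every library. APD4, a RING/U-box protein gene with 5.34 ± 0.68 CPM in the mutant and 4.42 ± 0.174 in the wild type, had 33, 36 and 28 reads in the bin at chr2:16002696-16003723 in the mutant and 82, 92 and 49 in the wild type. An exon of a gene on the same strand, AT2G38185, lies inside it. The mitochondrial gene ATMG00580 had 65, 109 and 80 intron reads in the mutant and 167, 218 and 118 in the wild type, more than its gene count of 61, 82 and 70 in the mutant and 69, 71 and 39 in the wild type.

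**Figure D3:**
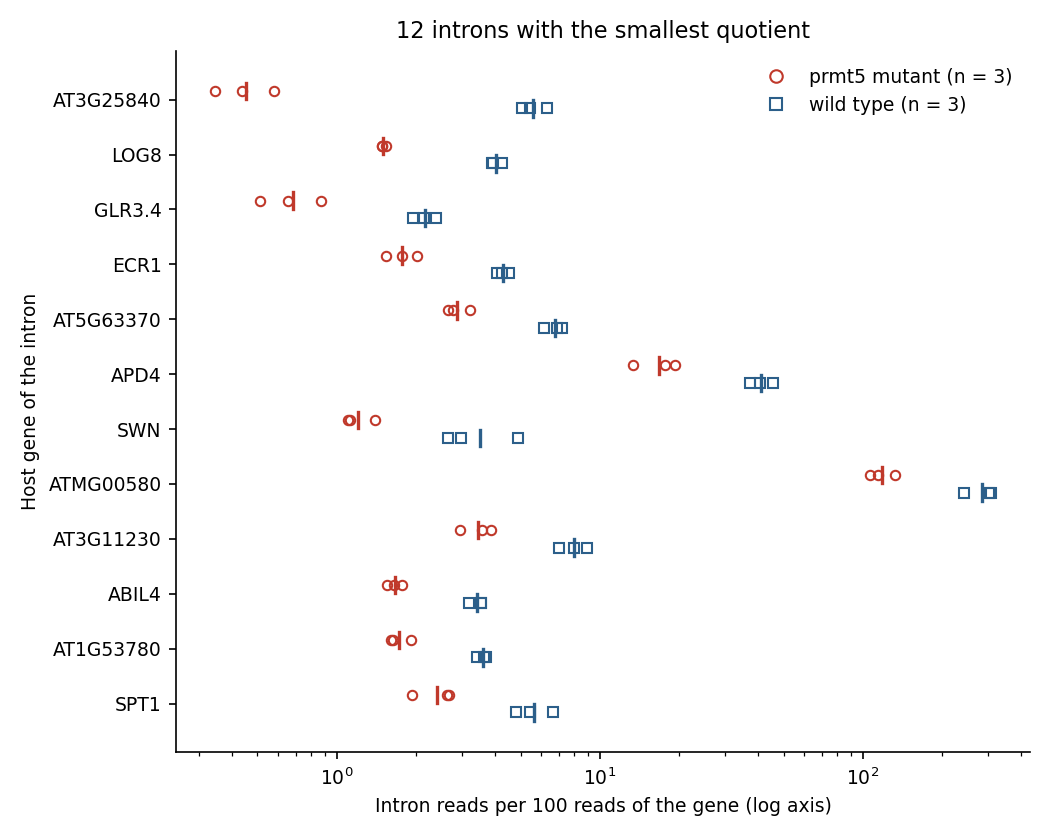
The plot gives reads per 100 gene reads in each library on a log axis. The 12 introns shown had the smallest quotients among those with a mean count of at least 50, no gene repeated. Circles are prmt5 mutant libraries, drawn above wild type libraries as squares, and the mean is a vertical line (n = 3 each). No circle reaches a square of the same intron, and the widest gap is in AT3G25840, at 0.454 in the mutant and 5.59 in the wild type.

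The introns lay towards the 3′ end of their genes. Of the 328 nuclear introns, 211 (64.3%) were in the 3′ part of the gene, 78 in the middle part and 39 in the 5′ part, where 37.8% of all tested introns were in the 3′ part. Counted the other way, 0.503% of tested introns in the 5′ part, 0.573% in the middle part and 1.63% in the 3′ part belonged to the group, while the share with more reads in the mutant was 33.8%, 28.9% and 16.1%. Coverage along genes also varied between libraries, with the groups overlapping. Exonic read density in the 3′ part over that in the 5′ part, as a median log2 value over 11643 genes, was 0.75, 0.82 and 1.28 in mutant replicates 1, 2 and 3 and 1.66, 1.24 and 1.30 in wild type replicates 1, 2 and 3. Mutant replicates 1 and 2 were the lowest, wild type replicate 1 was the highest, and mutant replicate 3 lay above wild type replicate 2. The share of the group in the 3′ part was 56.9% without wild type replicate 1 and 58.2% without mutant replicate 2, and 72.8% without mutant replicate 3. Among the introns that also stayed below 0.8 relative to their adjoining exon bins, which lie at the same place in the gene, 107 of 195 (54.9%) were in the 3′ part. The part of coverage along genes in the position of the group was not tested.

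**Figure D4:**
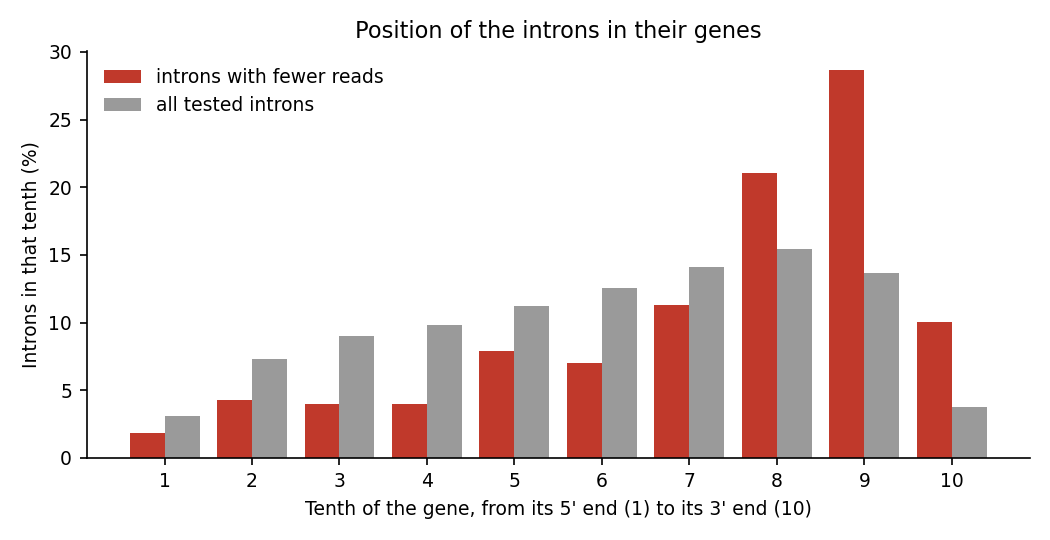
Bars give the percentage of introns in each of 10 equal parts of the gene, from the 5′ end at 1 to the 3′ end at 10, red for the introns with fewer reads in the mutant and grey for all tested introns. The group stands above the grey bars in parts 8, 9 and 10, with 28.7% against 13.7% in part 9.

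Introns of the 3′ UTR made up 26 of the 328 (7.93%), against 2.60% of all tested introns, and introns between coding exons 290 (88.4%, against 91.2%). In 23 of these 26 the scaled intron reads were lower in all mutant libraries, where 17.8% of 891 tested 3′ UTR introns were. The rule used these intron counts, so nothing is read from that share. The exons beyond the intron had a median log2 difference, relative to the gene, of -0.32 in the group's 3′ UTR introns. Among all tested 3′ UTR introns it was -0.30, so at the median this was not particular to the group. Summed exon bins 3′ of the intron, relative to the gene, stayed below 0.8 in 5 of 22 3′ UTR introns with enough reads there and in 11 of 321 of the whole group (3.43%), against 6.02% of 797 tested 3′ UTR introns and 0.44% of all tested introns.

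AT3G25840 encodes a protein kinase, listed here among the splicing kinases as PRP4KA, a kinase that acts on spliceosomal proteins. Its intron at chr3:9452184-9452492, in the 3′ UTR, had 9, 15 and 14 reads in the mutant libraries and 151, 223 and 126 in the wild type libraries. The 3 exon bins of the distal 3′ UTR were as low: the outermost, at chr3:9451861-9452032, had 19, 37 and 53 reads in the mutant and 553, 510 and 233 in the wild type. Reads spliced across the intron numbered 6, 10 and 21 in the mutant and 288, 259 and 116 in the wild type. Every mutant library was below every wild type library on all 3 measures.

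The junction that leads into this region, at chr3:9452559-9452781, had 15, 18 and 22 reads in the mutant and 337, 369 and 178 in the wild type. The bin at chr3:9452663-9452781, which is exon in another annotated form, had 218, 294 and 236 reads in the mutant and 184, 166 and 77 in the wild type, or 8.90 ± 0.747 and 4.74 ± 1.61 reads per 100 gene reads (SD, n = 3). Upstream junctions differed less: the one at chr3:9453182-9453269 had 140, 250 and 214 reads in the mutant and 130, 256 and 108 in the wild type. The gene as a whole averaged 76.4 ± 5.88 CPM in the mutant and 73.5 ± 3.62 in the wild type. The log2 difference of the intron was -3.57 relative to the gene, 0.47 relative to the reads spliced across it and 0.15 relative to the adjoining bins, so the lower value was shared by the intron, its exons and its junctions.

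AT5G63370, the gene of cyclin-dependent kinase CDKG1, showed lower reads over the same part of the gene. Its annotated retained intron in the 3′ UTR at chr5:25384222-25384359 had 70, 103 and 73 reads in the mutant and 202, 359 and 187 in the wild type. RefSeq places an exon of AT5G63375, an opposite-strand gene that was not tested, within this bin, so its reads cannot be told from intron reads. The exon bin at chr5:25383906-25384171 beyond it had 95, 124 and 78 reads in the mutant and 411, 447 and 216 in the wild type. Spliced reads across the intron were 3, 14 and 11 in the mutant and 49, 71 and 32 in the wild type, so relative to them the log2 difference was 1.06, the opposite sign to the ratio to the gene (-1.22). The long exon bin 5′ of the intron held 91.4 ± 1.55 reads per 100 gene reads in the mutant and 87.3 ± 2.52 in the wild type (SD, n = 3).

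**Figure D5:**
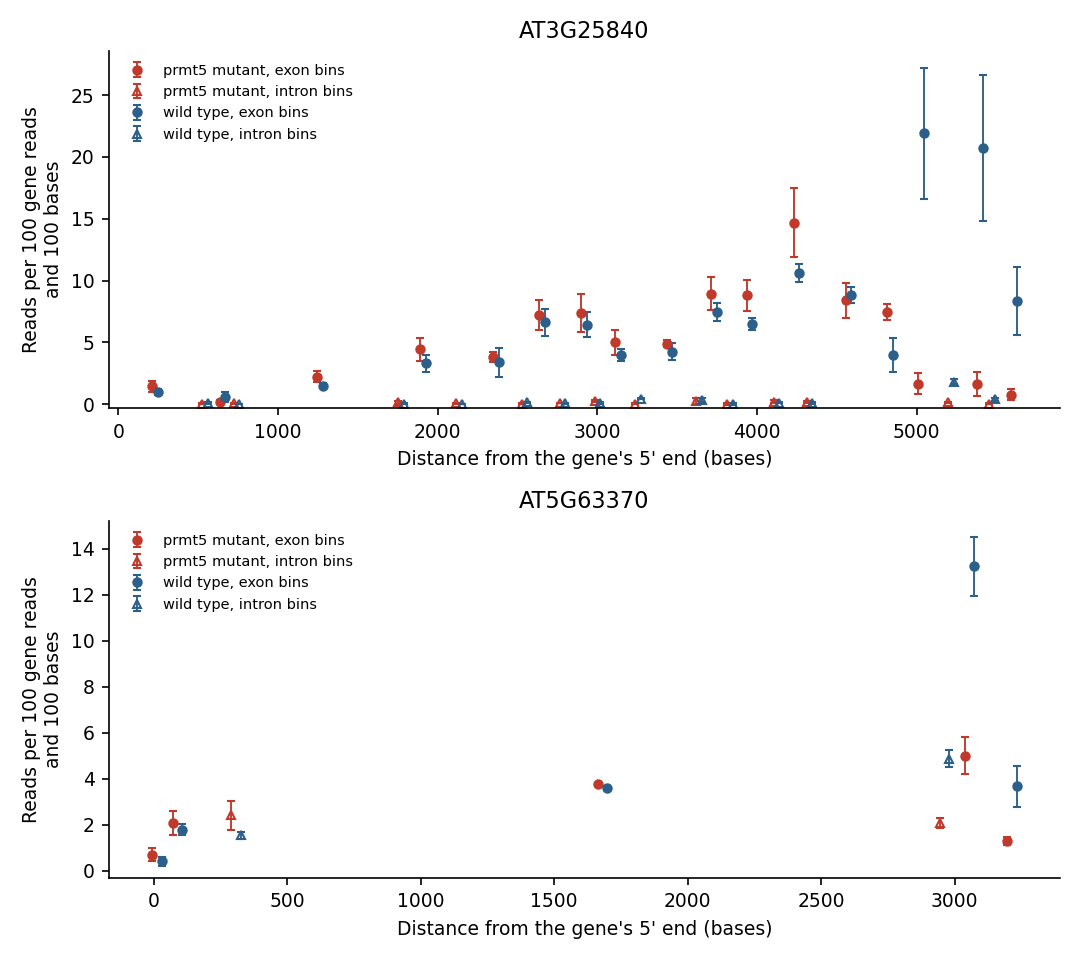
Reads per 100 gene reads and 100 bases of each bin (mean ± SD, n = 3) are plotted against the distance of the bin from the 5′ end of the gene, for AT3G25840 above and AT5G63370 below, with exon bins filled and intron bins open, prmt5 mutant in red and wild type in blue. Bins shorter than 10 bases and the bin that overlaps an exon bin in AT3G25840 are left out. In both genes the exon bins and the intron bin at the 3′ end stand far below the wild type in the mutant, and the exon bin just before them in AT3G25840 stands higher in the mutant.

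AT5G51410, annotated with a LUC7 N terminus domain known from a U1 snRNP protein of Saccharomyces cerevisiae, was named after its values were seen, for its low exons beyond the intron. Its retained 3′ UTR intron at chr5:20881394-20881524 had 61, 83 and 84 reads in the mutant and 114, 228 and 98 in the wild type. The exon bins beyond it had 85, 115 and 132 reads in the mutant and 316, 469 and 280 in the wild type. In the intron and in the exons beyond it, every mutant library held fewer reads than any wild type library.

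AT5G50310, annotated as a galactose oxidase and kelch repeat protein, was also named after its values were seen. Its intron at chr5:20478264-20478358 had 0 reads in each mutant library and 18, 22 and 10 in the wild type libraries. The whole gene had 244, 256 and 219 reads in the mutant and 1889, 2203 and 1289 in the wild type, so intron and gene were low together. At these counts a level of up to 3 reads per library cannot be told from 0. The wild type libraries alone met the read filter, and the mutant ratios rest only on the value added to the intron count. Whether this intron was lower relative to its gene therefore cannot be read from these counts.

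PAA1 showed the reverse arrangement. It encodes the copper-transporting ATPase of the chloroplast envelope, and a shorter splice form of the gene is known to encode a copper chaperone. A bin of 516 bases at chr4:16120687-16121202 had 519, 694 and 553 reads in the mutant and 1000, 1423 and 711 in the wild type. Reads spliced across this bin were 0 in every library. Its read density was 128% of the exonic density of the gene in the mutant and 193% in the wild type. The exon bins 3′ of it held 2270, 2868 and 2016 reads in the mutant and 1807, 2661 and 1434 in the wild type, a log2 difference of 0.50 relative to the gene, the highest of the group. Relative to the gene, the mutant was lower in the bin and higher in the exons that follow it. The adjoining intron bin at chr4:16120584-16120686 had 8, 12 and 6 reads in the mutant and 21, 34 and 14 in the wild type, and 256, 360 and 320 reads were spliced across it in the mutant against 503, 729 and 398 in the wild type.

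Most host genes contributed 1 intron: 282 of the 305 did, 21 contributed 2, and 2 contributed 3. In 282 host genes 1128 other introns were tested, with a median log2 difference of 0.51 relative to the gene. Of these, 375 (33.2%) had more reads in the mutant by the mirror rule, where 25.2% of all tested introns did. At least 1 such intron was held by 205 of the 282 host genes, and by 5786 of all 12275 genes, those with a single tested intron included. Another 38 of the 1128 had a quotient between 0.8 and 1, so mutant and wild type did not overlap; of all tested introns 3.45% had a quotient under 1, the group included.

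FUM2, the cytosolic fumarase that interconverts fumarate and malate, and AT4G17100, annotated as a poly(U)-specific endoribonuclease-B protein, contributed 3 introns each. The introns of FUM2 are printed whole because they lie near each other in a single gene and differ in how far the mutant was below the wild type. Capitals mark the first 6 and the last 3 bases.
FUM2 intron A, chr5:20732685-20732785, plus strand: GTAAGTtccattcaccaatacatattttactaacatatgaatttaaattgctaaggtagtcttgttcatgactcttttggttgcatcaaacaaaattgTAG
FUM2 intron B, chr5:20733069-20733164, plus strand: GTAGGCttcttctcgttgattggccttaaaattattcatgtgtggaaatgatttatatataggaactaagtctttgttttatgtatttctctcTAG
FUM2 intron C, chr5:20733195-20733290, plus strand: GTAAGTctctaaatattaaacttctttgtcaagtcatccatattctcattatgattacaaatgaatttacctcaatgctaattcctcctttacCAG
Intron A had 0.189, 0.210 and 0.156 reads per 100 gene reads in the mutant libraries and 0.290, 0.327 and 0.337 in the wild type libraries. Intron B had 0.410, 0.291 and 0.589 in the mutant and 0.936, 1.11 and 1.38 in the wild type. Intron C had 0.631, 0.518 and 0.606 in the mutant and 1.10, 0.863 and 1.38 in the wild type. The log2 differences were -0.75 for A, -1.39 for B and -0.92 for C, in a gene of 137 ± 39.4 CPM in the mutant and 114 ± 29.9 in the wild type. Intron A rests on 6, 13 and 9 reads in the mutant and 9, 25 and 12 in the wild type. Scaled intron reads overlapped between the groups in all 3 introns.

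In AT4G17100 the wild type libraries differed among themselves.
AT4G17100 intron A, chr4:9611458-9611574, minus strand: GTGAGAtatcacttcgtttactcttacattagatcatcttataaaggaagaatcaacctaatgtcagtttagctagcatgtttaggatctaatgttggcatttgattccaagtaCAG
AT4G17100 intron B, chr4:9610574-9610680, minus strand: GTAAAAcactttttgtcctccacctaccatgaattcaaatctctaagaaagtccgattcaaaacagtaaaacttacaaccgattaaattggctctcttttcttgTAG
AT4G17100 intron C, chr4:9610401-9610501, minus strand: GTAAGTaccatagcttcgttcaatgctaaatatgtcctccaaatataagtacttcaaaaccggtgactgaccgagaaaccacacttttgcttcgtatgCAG
Intron A had 27, 33 and 26 reads in the mutant and 43, 121 and 58 in the wild type, intron B 12, 6 and 10 in the mutant and 14, 75 and 38 in the wild type, and intron C 12, 7 and 4 in the mutant and 18, 56 and 24 in the wild type. Wild type replicate 1 was the lowest wild type library for each, close to the mutant libraries in raw reads. Exons of AT4G17098, on the opposite strand, lie inside all 3 introns, and that gene had 1889, 1942 and 1724 reads in the mutant and 1807, 2959 and 1607 in the wild type.

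Annotated retained introns were 17 of the 330 (5.15%), against 5.46% of all tested introns. The 3 with the highest mean count were in AT5G14550, AT5G26180 and AT5G05310. AT5G14550, of the core-2/I-branching glycosyltransferase family, had 108, 258 and 185 reads in its retained intron in the mutant and 437, 589 and 237 in the wild type. AT5G26180, a methyltransferase family gene, had 104, 173 and 113 reads in the mutant and 309, 255 and 143 in the wild type. Its adjoining exon bins were as low relative to the gene, so against them the log2 difference was 0.16. AT5G05310, an ATP/ADP transporter family gene, had 192, 289 and 214 intron reads in the mutant and 141, 156 and 79 in the wild type, within a gene of 53.9 ± 2.18 CPM in the mutant and 15.99 ± 0.964 in the wild type. There the mutant had more intron reads in absolute terms and fewer per gene read, 11.6 ± 0.88 against 19.2 ± 2.90 per 100 (SD, n = 3).

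Exons of a form of the same gene in RefSeq lay within 89 of 328 introns (27.1%, against 18.99% of all tested introns), counting overlaps of at least 20 bases. Among those with a mean count of at least 50 they lay within 41 of 69, against 35.7% of 7179 tested introns at that level. Exons of another gene on the opposite strand lay within 26 (7.93%, against 3.71%) and on the same strand within 4. The labels' protocol names no step that marks the strand, so reads of such genes cannot be told from reads of the intron. Of the 26 genes found this way, 19 could be tested, and edgeR called 4 of them higher and 5 lower in the mutant, where 18.6% and 15.9% of all tested genes were.

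The 3 longest introns of the group held other genes. That of LpxC3, an enzyme of the lipid A pathway, spans 5610 bases at chr1:8798868-8804477 and had 20074, 25265 and 23340 reads in the mutant and 38724, 44155 and 20904 in the wild type. Reads spliced across this LpxC3 bin were 0 in every library. AT1G24996, an opposite-strand gene within it, had 12675, 15766 and 14560 reads in the mutant and 29640, 31199 and 14441 in the wild type (log2 difference -0.64, edgeR adjusted p = 0.0086). The intron of XRCC4, a partner of DNA ligase IV in end joining, spans 4127 bases at chr3:8222019-8226145 and had 270, 409 and 400 reads in the mutant and 510, 902 and 492 in the wild type. AT3G23110, inside it on the other strand, had 202, 352 and 327 reads in the mutant and 411, 796 and 457 in the wild type. That of AT3G15260, a protein phosphatase 2C family gene, lies at chr3:5140255-5142395 and had 102, 179 and 150 reads in the mutant and 236, 375 and 179 in the wild type, and AT3G15270 inside it had 48, 92 and 70 in the mutant and 139, 287 and 132 in the wild type. EdgeR called AT1G24996, AT3G23110 and AT3G15270 lower in the mutant. AT1G25025 and AT1G25053, also within the LpxC3 intron, were not called, with log2 differences of 0.26 (adjusted p = 0.75) and 0.19 (adjusted p = 0.60). In all 3 introns scaled intron reads were lower in every mutant library.

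Introns of AT5G50565 and AT5G50665 had the same counts in every library, 43, 49 and 55 in the mutant and 69, 111 and 37 in the wild type, so these entries may be 1 signal at near-identical copies and their values are uncertain.

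In 5 fixed lists of genes of splicing and of processes known to depend on PRMT5, the group had 1 intron. Splicing genes outside these lists, such as AT5G51410 above, were not counted. The 20 SR and SR-like splicing factor genes held 86 tested introns, of which 0 were in the group and 15 had more reads in the mutant by the mirror rule; their smallest quotient was 0.804, in RS31. The 5 splicing kinase genes held 33, of which 1 (AT3G25840) was in the group and 17 had more reads. The 5 hnRNP-like regulators held 21 introns with 0 in the group and 6 with more reads. The circadian clock genes held 35 introns with 0 and 10, and the flowering time genes 58 with 0 and 15. By the edgeR intron test, 0, 1, 0, 0 and 1 introns of these lists were called lower and 21, 20, 7, 10 and 15 higher, in the order given. Over all tested introns 0.959% were in the group, 25.2% had more reads by the mirror rule, and edgeR called 1.21% lower and 26.7% higher. At that share fewer than 1 intron of any of these lists would be in the group, so the counts of 0 are near the background. Median log2 differences relative to the gene were 0.35, 0.77, 0.40, 0.60 and 0.54 in the same order, beside 0.46 over all tested introns.

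At the edge of the rule, TAF4 and FP3 were the last introns kept with a mean count of at least 50. TAF4, a subunit of the general transcription factor TFIID, had a quotient of 0.798, with 1.33, 1.99 and 2.07 reads per 100 gene reads in the mutant and 2.63, 3.79 and 2.59 in the wild type. Reads spliced across the TAF4 intron were 0 in every library. FP3, a farnesylated protein, had a quotient of 0.800, with 1.37, 1.53 and 1.30 in the mutant and 1.91, 3.13 and 2.91 in the wild type. Just outside were AT5G01595, a noncoding gene, at 0.805 and CHB3, a DNA-binding family protein gene, at 0.805. In AT5G01595 mutant replicate 1 stood apart, with 1803 intron reads beside 302 and 498 in the other mutant libraries and 4227, 7791 and 4294 in the wild type. CHB3 had 14.3, 12.1 and 15.3 reads per 100 gene reads in the mutant and 21.7, 19.1 and 19.7 in the wild type.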

How the data were processed

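RNA was polyA-selected and sequenced from whole plants, per the labels' protocols. STAR and TAIR10 are named, per the submitters' processing notes. The deposited values are raw counts of reads per gene, exon bin, intron bin and junction, per the file headers, with no normalization; gene counts summed to 33099525 to 40150358 per mutant library and 29145068 to 59480457 per wild type library. Whether counting used the strand is not stated. Ratios, medians and shares were computed in Python 3.11.15. Introns (with log of gene count plus 1 as offset) and genes were tested with edgeR 4.0.16 (TMM, robust quasi-likelihood, adjusted p under 0.05) in R 4.3.3; DESeq2 1.42.0 was an alternative. On simulated data, the intron test on 34408 introns recovered 85.1% of introns changed by 2 on the log2 scale and 22.4% of those changed by 1. The simulation changed 67 introns at each of these sizes and gave every intron the same spread between libraries beyond counting error. Many more introns were called in these data, and their spread need not be the same, so the rates do not give the power here. Members and gene lists were chosen with earlier results of these data known. Named introns were, among those with a mean count of at least 50, the 12 smallest quotients at 1 per gene, those in listed genes, the 3 most read retained introns and 2 on each side of the threshold, besides the 3 genes with most members, the 3 longest members and PRMT5. Names and sequence came from RefSeq TAIR10.1 by locus tag: 32834 of 32835 matched nuclear genes overlapped, and 98.6% of 33510 tested whole introns were GT-AG. Counts limit precision by counting error only, and mitochondrial coordinates were not compared.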

Additional observations from a re-analysis of the deposited data

How the results depend on the processing

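The 330 introns became 635 at a threshold of 0.9, 176 at 0.7, 194 with at least 20 reads and 1915 of 106593 with no filter on intron reads. With library size in place of the gene count there were 555, of which 126 were shared. Every left-out library loosens the rule, which then compares fewer values: 520, 539 and 781 introns were kept without mutant replicates 1, 2 and 3, and 564, 553 and 544 without wild type replicates 1, 2 and 3. The edgeR intron calls were 9606, and 5123 to 8896 with a library left out (5737, 5123 and 5660 without mutant replicates 1, 2 and 3). The share in the 3′ part of the gene was 69.8% without genes that overlap another, 54.9% for introns also below the threshold relative to adjoining exon bins (an alternative chosen after seeing the data), and 56.9% to 72.8% with a library left out. Same-numbered mutant and wild type libraries did not deviate together (correlations of deviations -0.131, -0.042 and 0.0011), so the numbers were not taken as pairs. With a replicate block, 8944 introns and 6828 genes were called, against 9606 and 7564. The log2 difference changed sign in AT3G25840 (0.47 relative to spliced reads, 0.15 to adjoining bins), AT5G63370 (1.06, spliced reads), AT5G26180 (0.16, adjoining bins) and, with library size, in LOG8 (0.48), ABIL4 (0.094), AT5G05310 (1.03), FP3 (0.21) and CHB3 (0.027), where the gene itself had more reads in the mutant. The median 5′ splice site score lay between 7.73 and 8.01 under the alternatives run. Depth limits single values: 41.2% of the group and 47.9% of all tested introns had a mean count under 20.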
